A study of Mus musculus with 2 samples.

Results

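Cathepsins are lysosomal proteases and cystatins are inhibitors of the cysteine type among them. The genes of these families followed here, in microglia of amyloid-bearing mice, were *Ctsb*, *Ctsc*, *Ctsd*, *Ctsh*, *Ctsl*, *Ctss*, *Ctsz*, *Cst3*, *Cst7* and *Cstb*. They were chosen by name with earlier results of these data known, and all 10 had a row among the 32285 genes of the count table. Shares of these members set against all genes are therefore not independent of the data. They were described by cell state, with cells gated on counts of other genes, and by library.

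PSAPP mice carry the APPswe/PS1δE9 transgenes, which are human amyloid precursor protein and presenilin genes with disease mutations, and all mice of both groups carried them. The VEH group was given vehicle and the LEM group lemborexant, an antagonist of both orexin receptors. Lemborexant was dosed at 30 mg/kg/day, and both groups were gavaged daily over 30 days, between 9 and 10 months of age. Sorting took live CD45lo CD11b+ cells of the cortex and hippocampus, and each treatment gave 1 single-cell 5′ library from 5 pooled mice of both sexes. With 1 library per treatment no test of the treatment was possible, and the 95% intervals given here cover counting error only, not differences between mice.

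Cathepsins are made as inactive precursors and are processed in endosomes and lysosomes, where they break down proteins taken up by the cell. Most are cysteine proteases, and *Ctsd* encodes the main aspartic protease of the lysosome, which cystatins do not inhibit. Disease-associated microglia (DAM) are cells that gather at amyloid plaques and are known for high lysosomal gene expression, and *Cst7* is among the best known DAM genes.

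The VEH library held 18374 cells with a median of 5971 counts, and the LEM library 24392 cells with a median of 6034. Each of 7 microglial markers other than the members was counted in 97.2% to 99.9% of VEH cells and 97.3% to 99.8% of LEM cells. Single markers of other leukocytes were in at most 0.0708% and 0.0820% of cells. The 3 oligodendrocyte markers were uneven, in 0% to 15.4% of VEH cells and 0.0123% to 17.0% of LEM cells. The 3 endothelial markers were in 0% to 6.53% and 0.0041% to 5.14%. Levels are CPM values, a gene's counts over the summed counts of a group of cells on the usual scale. Cells of the female and male mice of a pool were told apart by sex-linked transcripts, which gave 4 subpools of different mice, with 5686 female and 9025 male cells in VEH and 8409 and 11223 in LEM. A further 981 VEH and 1764 LEM cells held transcripts of both sexes, and 2682 and 2996 of neither. Those cells entered no subpool.

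The DAM gate required counts of at least 4 of 7 genes, *Itgax*, *Lpl*, *Spp1*, *Gpnmb*, *Igf1*, *Axl* and *Cox6a2*, in cells outside the mitotic, interferon and MHC class II gates. It held 196 VEH and 282 LEM cells. The homeostatic gate, for cells that passed no other gate and had at least 5 counts each of *P2ry12* and *Cx3cr1* and 1 of *Tmem119*, held 12347 and 14662 cells. It could include cells with a single DAM marker, and *Itgax* was at 10.2 CPM in VEH and 15.7 CPM in LEM there. DAM-gated cells were deeper, with a median of 11862 counts in VEH and 12205 in LEM against 5916 and 5768 in the homeostatic gate, so the comparison of these gates was repeated in cells thinned to 2000 counts. The other gates were set against the homeostatic gate as deposited only, although they too were deeper.

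DAM-gated cells had higher levels of *Ctsd*, *Ctsb*, *Ctsl*, *Ctsz* and *Cstb* than homeostatic-gated cells, by log2 ratios of 1.20 or more in both libraries, and a far higher level of *Cst7*. *Ctsc*, *Ctsh*, *Ctss* and *Cst3* stayed near their homeostatic levels. A gene was read as higher or lower between states from 2-fold in both libraries, among genes with a count in 10% or more of a library's cells. *Cst7*, with counts in 9.26% (VEH) and 9.47% (LEM) of cells, fell short of that minimum, which left 9 members under the rule. Of these, 5 (55.6%) were at least 2-fold higher in the DAM gate, against 1.90% of 7525 genes, and 0 were at least 2-fold lower, against 3.97%. The median log2 ratio of the 9 was 1.30 in VEH and 1.20 in LEM, beside −0.32 and −0.33 over all genes.

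*Ctsd* was at 8472 CPM in the homeostatic gate and 21771 CPM in the DAM gate of VEH, and at 9521 and 21941 CPM in LEM. The log2 ratio of DAM to homeostatic was 1.36 (1.35 to 1.38) in VEH and 1.20 (1.19 to 1.21) in LEM. The ratio of LEM to VEH was 0.25 in the homeostatic and −0.051 in the DAM gate among females, and 0.059 and 0.056 among males.

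Among the cysteine proteases, *Ctsb*, a protease with both endopeptidase and exopeptidase activity, was at 1985 and 6218 CPM in the homeostatic and DAM gates of VEH and at 2106 and 6447 CPM in LEM. Its log2 ratios were 1.65 and 1.61. *Ctsl*, an endopeptidase, was at 834 and 2151 CPM in VEH and at 831 and 2037 CPM in LEM, with log2 ratios of 1.37 and 1.29. *Ctsz*, a carboxypeptidase also known as cathepsin X, was at 1659 and 4092 CPM in VEH and at 1904 and 4425 CPM in LEM, with log2 ratios of 1.30 and 1.22. For each of these proteases the DAM level was more than 2-fold above the homeostatic one in both libraries.

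The other cysteine proteases did not reach 2-fold. *Ctss*, which trims the invariant chain of MHC class II, was at 5170 and 6252 CPM in VEH and at 5285 and 6372 CPM in LEM, a log2 ratio of 0.27 in each. *Ctsh*, an aminopeptidase, had log2 ratios of 0.12 and −0.01. *Ctsc*, which activates serine proteases of immune cells, was at 493 and 438 CPM in VEH and at 542 and 498 CPM in LEM, with log2 ratios of −0.17 and −0.12.

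Of the 3 inhibitors, *Cst3* stayed near its homeostatic level, while *Cstb* and *Cst7* were both higher in the DAM gate, by unlike amounts. *Cst3*, cystatin C, a secreted inhibitor, was at 64771 CPM in the homeostatic gate and 58335 CPM in the DAM gate of VEH, and at 55756 and 57817 CPM in LEM. Its log2 ratio was −0.15 in VEH and 0.05 in LEM, but the LEM value was negative under 7 of 15 alternatives, from −0.23 to 0.071, and −0.0057 among LEM males, so no direction is read for *Cst3*. *Cstb*, a cytosolic inhibitor also known as stefin B, was at 77.1 and 193 CPM in VEH and at 75.4 and 220 CPM in LEM, with log2 ratios of 1.33 (1.18 to 1.47) and 1.55 (1.44 to 1.65). *Cst7*, cystatin F, an inhibitor that enters the endolysosomal system, was at 10.5 and 1637 CPM in VEH and at 9.84 and 1124 CPM in LEM. Its log2 ratios were 7.28 (7.17 to 7.39) and 6.83 (6.73 to 6.94).

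The same 5 members were at least 2-fold higher in the DAM gate in each of the 4 subpools, against 1.60% of 7518 genes. The lowest of their 20 log2 ratios was 1.14, for *Ctsd* in LEM female cells, and the highest was 1.72, for *Ctsb* in LEM male cells. *Cst7* had log2 ratios of 6.96 and 7.57 in VEH female and male cells and 6.46 and 7.12 in LEM female and male cells. The plot of levels by state shows the steep and the level members side by side.

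**Figure D1:**
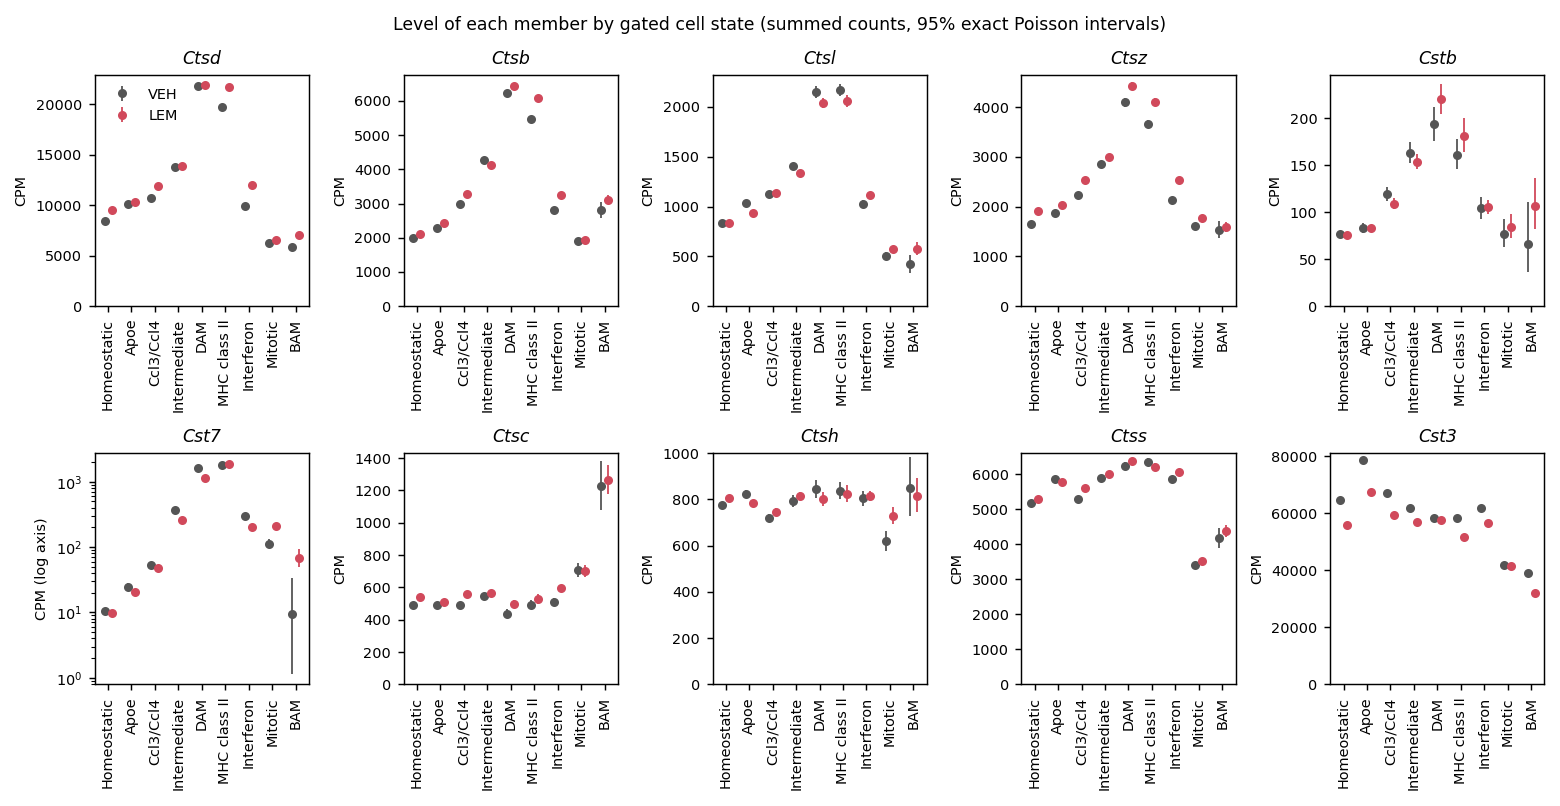
Level of each member in CPM (vertical axis, from 0 except for Cst7, whose axis is logarithmic) in 9 gated states (horizontal axis), for VEH (grey) and LEM (red); points are summed counts of a state and bars are 95% exact Poisson intervals. Ctsd, Ctsb, Ctsz and Cstb are highest in the DAM gate, Ctsl is about as high in the MHC class II gate as in the DAM gate, Ctsc peaks in the border-associated macrophage (BAM) gate, and Cst3 is highest in the Apoe gate.

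The 5 members that moved together lie on 5 chromosomes of GRCm38, the build that mm10 names. In the GENCODE M21 annotation *Ctsd* is at chr7:142375911-142388038, *Ctsb* at chr14:63122462-63145923, *Ctsl* at chr13:64359337-64370890, *Ctsz* at chr2:174427493-174439039 and *Cstb* at chr10:78425669-78427622. *Cst7* (chr2:150570415-150578944) and *Cst3* (chr2:148871722-148875692) are on the chromosome of *Ctsz*. *Ctsb*, *Ctsc*, *Ctsd*, *Ctsl*, *Ctss* and *Ctsz* each overlap at least 1 other annotated gene, and *Ctsd* shares 6757 bases with *Gm49369* on the same strand, which has no row in the table. The 3 of those genes with a row in the table held few counts, at most 2954 in VEH (*Nelfcd*) beside 215112 of *Ctsz*.

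Promoter windows from RefSeq were used for 7 of the 10 members, all but *Ctsb*, *Ctsh* and *Cstb*. The 250 bases before the start were searched on both strands for the E-box CACGTG, the core of the site of the lysosomal regulator TFEB, and for GAGGAA, a string found in sites of the macrophage factor PU.1 and narrower than the GGAA that ETS factors share. The E-box was in the windows of 2 members, *Ctsd* with 2 matches and *Ctsl* with 1, and in 6.02% of all 32851 windows. GAGGAA was in those of 3 members, *Cst3*, *Ctss* and *Ctsc*, and in 23.3% of all windows. A match is a string of letters and not a measured site. The stretches below are shown because they hold the E-boxes of 2 members that were high in DAM-gated cells, and, for comparison, the 100 bases before *Ctsz* and *Cst7*, which were high in the same cells and whose windows held neither of these strings. Capitals mark the E-box, all run 5′ to 3′ on the strand of the gene, and coordinates are RefSeq's on GRCm38.p6.
Ctsd, chr7:142388039-142388077, minus strand, E-box 245 to 240 bases before the start: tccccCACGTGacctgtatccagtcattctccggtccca
Ctsd, chr7:142387908-142387937, minus strand, E-box 98 to 93 bases before the start, within the first exon of 1 GENCODE transcript: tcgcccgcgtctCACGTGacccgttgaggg
Ctsl, chr13:64370746-64370770, minus strand, E-box 236 to 231 bases before the start, with 8 bases in an exon of 1 GENCODE transcript: gcggcgttagaagcCACGTGctgat
Ctsz, chr2:174439040-174439139, minus strand: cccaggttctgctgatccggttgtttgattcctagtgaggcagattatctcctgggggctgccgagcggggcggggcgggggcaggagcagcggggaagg
Cst7, chr2:150570315-150570414, plus strand: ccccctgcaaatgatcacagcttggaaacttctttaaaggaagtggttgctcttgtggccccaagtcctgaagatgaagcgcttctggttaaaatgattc

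The level of the same members followed the number of DAM markers in a cell when every cell was thinned to 2000 counts. In VEH, *Ctsb* went from 2021 CPM in the 15427 cells with 0 markers to 3318 CPM with 1, 5534 CPM with 2 and 6299 CPM with 3, the last from 77 cells. In LEM the corresponding levels were 2208, 3161, 5601 and 6838 CPM. As deposited, the step from 0 to 1 marker was smaller, from 1970 to 2521 CPM in VEH and from 2142 to 2581 CPM in LEM. Thinning loses marker counts, so cells with 1 marker after thinning can hold more as deposited. *Ctsb* was thus higher with a single marker in both gradings, but the size of that step depended on thinning.

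*Ctsd*, at 8417, 11604, 17617 and 21604 CPM in VEH and 9510, 11620, 18349 and 20461 CPM in LEM, was higher at each step. *Cst3* went the other way, from 63150 CPM with 0 markers to 51948 CPM with 3 in VEH and from 56061 to 50934 CPM in LEM, although its LEM level was slightly higher in the DAM gate than in the homeostatic gate as deposited. *Cst7* went from 21.7 to 1935 CPM in VEH and from 21.7 to 1627 CPM in LEM. Graded as deposited, *Ctsb*, *Ctsd* and *Cst7* were also higher with 3 markers than with 0 in both libraries. *Cst3* was also lower in that grading, at 64823 and 61141 CPM in VEH and 57440 and 55648 CPM in LEM. The direction of these members from 0 to 3 markers, unlike that of *Cst3* between the gates, was thus the same with and without thinning. With 1 marker *Cst3* was higher than with 0 as deposited, at 65346.5 CPM in VEH and 58292 CPM in LEM. It was lower in thinned cells, at 61611 and 55512 CPM.

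**Figure D2:**
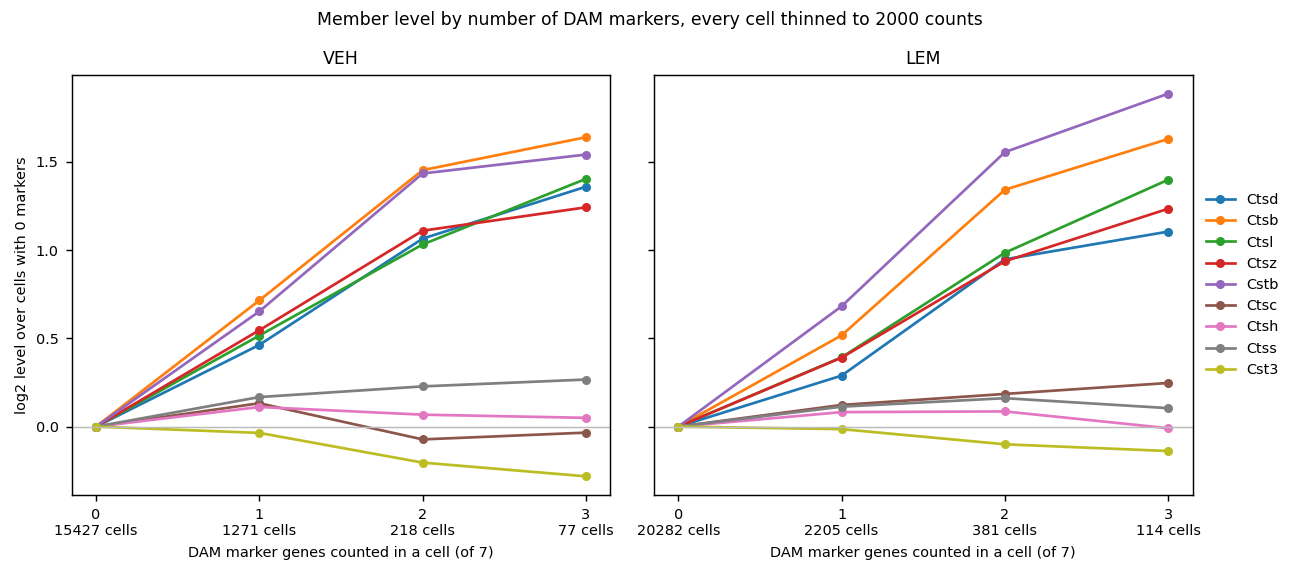
Level of 9 members in cells with 0 to 3 DAM marker genes, as the log2 ratio to cells with 0 (vertical axis), in VEH and LEM cells thinned to 2000 counts; the number of cells stands under each step of the horizontal axis. Ctsb, Cstb, Ctsl, Ctsz and Ctsd lie more than 1 log2 unit above 0 at 3 markers in both libraries, Ctsc, Ctsh and Ctss lie within 0.3 of 0, and Cst3 lies below 0. Cst7 is not plotted.

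In the intermediate gate, with 2 or 3 DAM markers and 582 VEH and 1121 LEM cells, *Ctsb* was at 4268 and 4117 CPM, *Ctsd* at 13777 and 13900 CPM and *Ctsz* at 2859 and 2998 CPM. All lay between their homeostatic and DAM levels. Only *Cstb*, at 163 and 154 CPM, was at least 2-fold above its homeostatic level in both libraries, 1 of 9 members (11.1%) against 0.492% of genes. *Ctsb* was just inside 2-fold in VEH, with a log2 ratio of 1.10, and just outside in LEM, with 0.97.

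The MHC class II gate took cells before the DAM gate if they had *H2-Aa*, *H2-Ab1* and *H2-Eb1* and at least 10 counts over these and *Cd74*, and 40.8% of its 238 VEH cells and 55.4% of its 195 LEM cells also had at least 4 DAM markers. *Ctsd*, *Ctsb*, *Ctsl*, *Ctsz* and *Cstb* were again at least 2-fold above the homeostatic gate, 5 of 9 against 1.71% of genes. *Cst7* was at 1815 CPM in VEH and 1851 CPM in LEM, its highest level among the gates in each library. *Ctss*, the protease of the invariant chain, was at 6356 and 6210 CPM, beside 6252 and 6372 CPM in the DAM gate. Its log2 ratios to the homeostatic gate were 0.30 and 0.23, so *Ctss* stayed short of 2-fold where MHC class II counts chose the cells.

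In the border-associated macrophage (BAM) gate, with 25 VEH and 68 LEM cells, *Ctsc* was at 1225 CPM (1081 to 1384) and 1265 CPM (1175 to 1360), with log2 ratios to the homeostatic gate of 1.31 and 1.22. It was the 1 member of 9 at least 2-fold higher there, against 1.23% of 7470 genes. *Ctsd*, at 5820 and 7011 CPM, and *Cst3*, at 38954 and 32141 CPM, were below their homeostatic levels in the same cells. Microglial *P2ry12* was at 2446 and 2033 CPM in this gate, beside 4664 and 4495 CPM in the homeostatic gate, and its part in these levels was not tested. *Cst7* had 2 counts in the VEH cells and 40 in the LEM cells of the gate.

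The mitotic gate, with 133 VEH and 197 LEM cells, had lower levels of *Ctsd*, *Ctsl*, *Ctss* and *Cst3* than the homeostatic gate. *Ctsd* was at 6209 and 6517 CPM, *Ctsl* at 507 and 576 CPM and *Ctss* at 3406 and 3537 CPM. *Ctsc* was higher there, at 708 and 703 CPM, with log2 ratios of 0.52 and 0.37, and so was *Cst7*, at 112 and 211 CPM. In the interferon gate, *Ctsd* was at 9935 CPM in VEH and 11971 CPM in LEM, and *Cst7* at 296 and 205 CPM.

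*Cst3* was highest in the Apoe gate, which took cells with at least 20 counts of *Apoe* and fewer than 2 DAM markers. There it was at 78708 CPM in 1410 VEH cells and 67422 CPM in 3502 LEM cells. *Ctsd* and *Ctsb* were higher there than in the homeostatic gate by log2 ratios of 0.25 and 0.21 in VEH and 0.12 and 0.21 in LEM. Cells from female mice made up 14.7% of the sexed cells of this gate in VEH and 14.6% in LEM, against 40.9% and 47.9% in the homeostatic gate.

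*Cst7* was the one member whose counts came mainly from rare cells. The MHC class II gate held 1.30% of VEH cells and 34.7% of the *Cst7* counts, and 0.799% of LEM cells and 27.6% of the counts. The DAM gate held 1.07% of VEH cells and 29.2% of the counts, and 1.16% of LEM cells and 26.1%. For *Ctsb*, the DAM gate held 5.26% and 5.39% of the counts, and the homeostatic gate 56.1% and 46.5%. The share of cells with a *Cst7* count was 93.9% in VEH and 86.9% in LEM in the DAM gate, and 74.9% and 58.9% after thinning. In the homeostatic gate it was 4.54% and 4.18%, and 1.82% and 1.44% after thinning. Choroid plexus droplets, an epithelium that should lack *Cst7*, gave 28.6% of 49 VEH and 15.1% of 146 LEM cells at medians of 9338 and 8109 counts, and 14.9% and 6.47% after thinning. The homeostatic shares lie below those. The choroid droplets also held microglial *P2ry12*, at 2534 and 2101 CPM, so they gave no level of free RNA alone, and background and expression of *Cst7* in the homeostatic gate cannot be told apart.

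Cells with and without *Cst7* were compared within a gate at equal depth. Among VEH homeostatic-gated cells, *Ctsb* was at 2864 CPM in the 220 with a *Cst7* count and 1947 CPM in the 11867 without, a log2 ratio of 0.56 (0.47 to 0.64). In LEM it was at 2912 CPM in 210 cells and 2083 CPM in 14341, a ratio of 0.48 (0.40 to 0.57). The part of free RNA in this ratio was not tested. *Ctsd* differed in the same direction, by 0.41 in VEH and 0.27 in LEM, while *Ctsh* differed by −0.08 and 0.00. Within the DAM gate the ratios for *Ctsd* were 0.51 and 0.58 and for *Ctsb* 0.36 and 0.35, so cells of 1 gate still differed in cathepsin level along with *Cst7*. *Ctsc* had ratios of −0.64 (−1.16 to −0.10) and −0.15 (−0.49 to 0.20) there.

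Likeness of pattern was measured by Pearson's r of log2 CPM over 18 profiles, the 9 states with at least 50 cells in each library times 2 libraries. The profiles of a library come from the same pool of mice, their depth differed by state, and profiles of 1 state in both libraries are not independent. The 10 pairs among *Ctsb*, *Ctsd*, *Ctsl*, *Ctsz* and *Cstb* had r from 0.92 to 0.99. *Ctss* had r from 0.71 to 0.88 with them, *Cst7* from 0.70 to 0.84, *Ctsh* from 0.60 to 0.73, *Cst3* from 0.38 to 0.59 and *Ctsc* from 0.12 to 0.26. Without the shallow cells that passed no gate, the r of *Ctsc* with them was −0.68 to −0.41, that of *Cst3* was 0.027 to 0.33, that of *Ctsh* 0.47 to 0.72 and that among the 5 was 0.90 to 0.99, over 16 profiles.

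The 3 genes most like each member were named among all genes of sufficient detection other than the gate genes. *Ctsb* was closest to *Ctsz*, then *Npc2*, a cholesterol carrier of the lysosome, and *Dpp7*, a lysosomal peptidase, with r of 0.98 to 0.99. *Ctsl* was closest to *Ctsa*, the lysosomal serine carboxypeptidase, *Trem2*, the lipid receptor of DAM, and *Eef1a1*. *Ctsd* was closest to *Trem2*, *Rps27a* and *Plbd2*. *Ctsz* was closest to *Ctsb*, *Dpp7* and *Rpl12*, and *Cstb* to *Ctsb*, *Ctsz* and *Dpp7*. *Cst7* was closest to *Ank*, *Csf1* and *Cd52*, with r of 0.95 to 0.96. Among the others, *Ctss* was closest to *Itm2b*, *Rpl10-ps3* and *Prdx2*, *Ctsc* to *Rbmxl1*, *Tmed5* and *Ssr2*, *Ctsh* to *Polr2g*, *Laptm5* and *Arpc5*, and *Cst3* to *Gabarapl2*, *Tprgl* and *Saraf*. Without the shallow cells that passed no gate, all 3 names changed for *Ctsc* (*Ifi30*, *A630089N07Rik* and *Rassf1*), *Ctsh* (*Slc11a1*, *As3mt* and *Rtl8c*) and *Cst3* (*Camk1*, *Cd53* and *Aamp*). *Ctsd* then kept only *Plbd2*, with *Lamp1* and *Rps3a1* in place of *Trem2* and *Rps27a*. *Cstb* kept only *Ctsb*, and *Ctss* only *Itm2b*. *Ctsb* kept *Ctsz* and *Dpp7*, *Ctsz* kept *Ctsb* and *Dpp7*, *Ctsl* kept *Trem2* and *Ctsa*, and *Cst7* kept *Ank* and *Cd52*.

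Over all cells of a library, *Ctsz*, *Ctsd*, *Ctsc* and *Ctsb* were higher in LEM than in VEH, *Cst3* and *Cst7* were lower, and the differences were small. A member was read as higher or lower from a log2 ratio of 0.1 in either direction, the fold in the study's methods. By this rule 4 of the 9 members (44.4%) were higher, against 14.1% of 7526 genes, and 1 was lower, against 9.86%. The median of the 9 was 0.04, beside 0.01 over all genes. The study names *Ctsd*, *Ctsz* and *Cst3* from these same libraries, so their direction is not independent of that choice.

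*Ctsz* was at 1851 CPM in VEH and 2123 CPM in LEM, a log2 ratio of 0.20 (0.19 to 0.21), and the female cells gave 0.25 and the male cells 0.14. *Ctsc* was at 490 and 537 CPM, and its ratios by sex were 0.11 (female) and 0.12 (male). *Ctsb* was at 2337 and 2538 CPM, and its ratios were 0.11 and 0.10. These 3 were above 0.1 in both sexes, 33.3% of the 9 members against 6.24% of 7521 genes.

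*Ctsd* was not alike in the sexes. Its level was 9638 CPM in VEH female, 9296 in VEH male, 11397 in LEM female and 9736 in LEM male cells, which gave log2 ratios of 0.24 (0.24 to 0.25) and 0.07 (0.06 to 0.07). The LEM female subpool stood above the other 3. *Ctsl*, at 941 CPM in VEH and 942 CPM in LEM, had ratios of 0.07 in female and −0.07 in male cells, and *Ctss* ratios of 0.09 and 0.01.

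*Cst3* was at 58551 CPM in VEH female, 67814 in VEH male, 56864 in LEM female and 57108 in LEM male cells. The VEH male subpool stood above the other 3, which lay close together. The log2 ratio of LEM to VEH was −0.17 over all cells, −0.04 among females and −0.25 among males. No member was below −0.1 in both sexes among the 9, 0% against 4.36% of genes. *Cst7*, outside the rule, was at 111 and 91.4 CPM over all cells, a ratio of −0.28 (−0.31 to −0.24), and females gave −0.17 and males −0.43. Mice of a pool cannot be told apart within a sex, so the number of mice behind each subpool's level is not known.

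**Figure D3:**
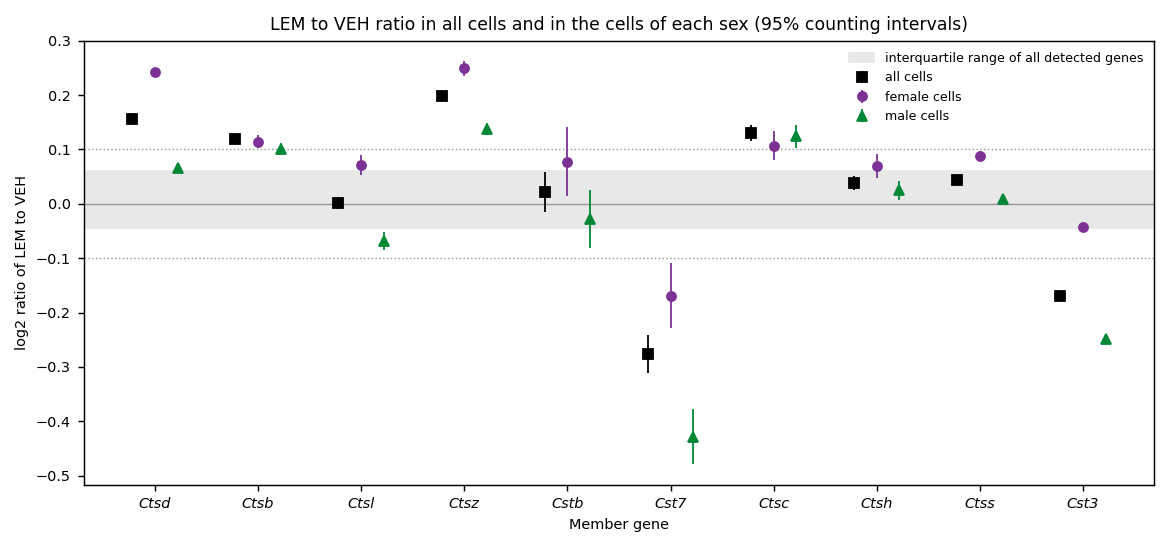
Log2 ratio of LEM to VEH (vertical axis) for each member (horizontal axis) in all cells (squares), female cells (circles) and male cells (triangles), with 95% counting intervals; the grey band is the interquartile range of all detected genes and dotted lines mark 0.1 and −0.1. Ctsz, Ctsb and Ctsc lie above 0.1 in both sexes, Ctsd lies apart in the sexes, and Cst3 is below −0.1 in all cells and in male cells but not in female cells.

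The library totals mix states whose shares differ, so the ratio was also taken within gates. The Apoe gate held 7.67% of VEH and 14.4% of LEM cells and the homeostatic gate 67.2% and 60.1%. Cells of the homeostatic gate still differed in *Apoe*, at 451 CPM in VEH and 782 CPM in LEM, and its part in the ratios was not tested. Within the homeostatic gate *Ctsz* had a log2 ratio of 0.20, *Ctsd* 0.17 and *Ctsc* 0.14, 3 of 9 members above 0.1 against 17.5% of genes, and *Cst3* had −0.22, 1 below −0.1 against 9.59%. By sex, *Ctsd* was at 0.25 among females and 0.059 among males, *Ctsc* at 0.092 and 0.16, and *Cst3* at −0.075 and −0.33, so each passed in 1 sex, while *Ctsz* passed in both. *Ctsb*, at 0.09, was just short of the fold there. With the state shares of LEM set to those of VEH, the all-cell ratios were 0.13 for *Ctsc*, 0.15 for *Ctsd*, 0.19 for *Ctsz* and −0.20 for *Cst3*, and *Ctsb*, at 0.093, no longer passed 0.1. *Cst7*, outside the rule, had −0.15 with that setting, beside −0.28 without it.

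Within the DAM gate, *Ctsd* had a log2 ratio of 0.01 (−0.01 to 0.03), *Ctsb* 0.05 (0.02 to 0.08), *Ctsl* −0.08 (−0.13 to −0.03) and *Cst3* −0.01. *Ctsz*, at 0.11, and *Ctsc* and *Cstb*, each at 0.19, passed 0.1, 3 of 9 members against 33.8% of genes, and 0 were below −0.1, against 29.5%. The share of members above 0.1, 33.3%, was thus that of all genes. *Cstb* had −0.09 in male and 0.45 in female cells. With thinned gates, which held 24 VEH and 39 LEM cells, *Ctsz* had −0.084 and *Ctsc* 0.95.

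*Cst7* was lower in LEM in the DAM gate in both sexes, and in the intermediate gate mainly among male cells. In the DAM gate it was at 1637 CPM (1585 to 1690) in VEH and 1124 CPM (1088 to 1160) in LEM, a log2 ratio of −0.54 (−0.61 to −0.48). The subpools were at 1424 CPM in VEH female, 1907 in VEH male, 1114 in LEM female and 1044 in LEM male cells, so both LEM subpools were below both VEH subpools. The DAM-gated cells of VEH and LEM also differed in *Lpl* (427 and 342 CPM), *Cd74* (987 and 716) and *Spp1* (205 and 312). *Itgax* was alike, at 196 and 197 CPM. The part of such differences in the *Cst7* ratio was not tested. In the intermediate gate the levels of *Cst7* were 368 and 260 CPM, and females gave a ratio of −0.12 (−0.25 to 0.015) and males −0.92. There the subpools were at 410 CPM in VEH female, 333 in VEH male, 378 in LEM female and 176 in LEM male cells. The LEM female level thus lay between those of the VEH subpools. In the interferon gate the ratio was −0.53, and −0.85 and −0.62 by sex. The mitotic gate went the other way, with a ratio of 0.91 (0.64 to 1.18), and 0.23 (−0.27 to 0.74) among females and 0.60 among males. The share of its cells with a *Cst7* count was alike, 20.3% in VEH and 22.3% in LEM. Cells that were called neither female nor male entered only the pooled ratio.

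In the MHC class II gate the direction of *Cst7* was not settled. Over its cells the ratio was 0.03 (−0.03 to 0.09), but −0.053 without the cells of highest doublet score and −0.050 in thinned cells. The ratio was −0.93 in female cells, of which there were 41 in VEH and 70 in LEM, and 0.46 in male cells, of which there were 140 and 82. With all cells of at least 4 DAM markers pooled, whatever their MHC class II counts, *Cst7* was at 1961 CPM in 314 VEH cells and 1481 CPM in 457 LEM cells, a ratio of −0.40, and females gave −0.59 and males −0.30. In the same cells *Ctsd* had a ratio of 0.02, but −0.10 among females and 0.13 among males, and *Ctsb* 0.06, but −0.11 and 0.21. This pooled set was defined after the gates had been read.

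The counts of *Cst7* were spread unevenly over cells of a gate. At 2000 counts per cell, the median DAM-gated cell held 2 *Cst7* counts in VEH and 1 in LEM, the upper quartile was 4 and 3, and the highest cell held 21 and 24. The 10% of cells with the most counts held 37.3% of the gate's *Cst7* counts in VEH and 47.2% in LEM. Counting intervals take no account of that spread.

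**Figure D4:**
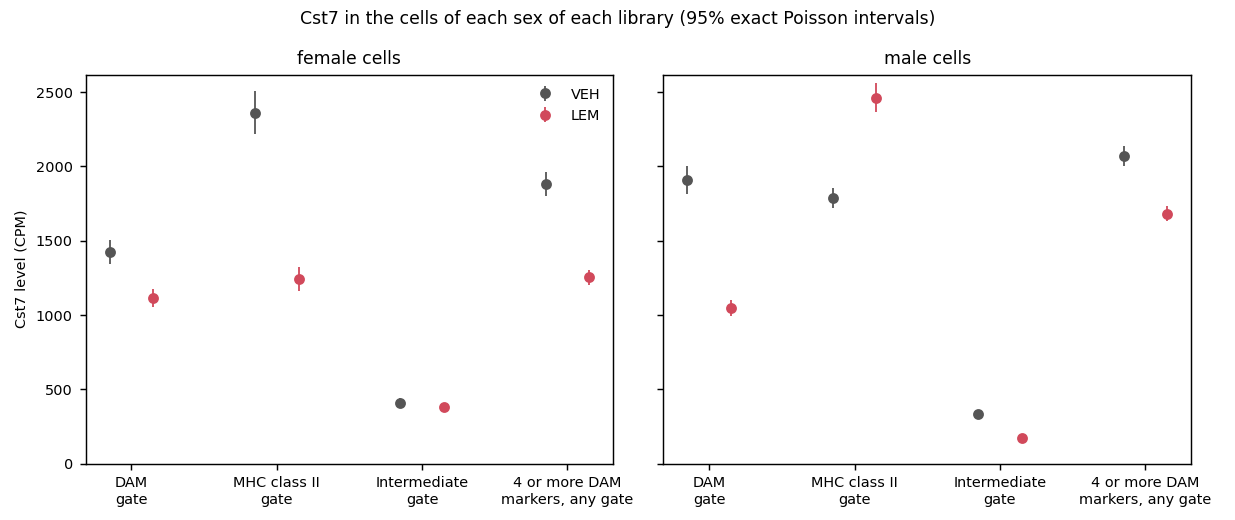
Cst7 level in CPM (vertical axis, from 0) in female cells (left) and male cells (right) of VEH (grey) and LEM (red), in 3 gates and in all cells with at least 4 DAM markers; bars are 95% exact Poisson intervals. LEM lies below VEH in the DAM gate and in the pooled cells of both sexes, and above VEH in the MHC class II gate of male cells.

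Related genes were counted from lists. Of 15 other cathepsins, 3 met the detection minimum, and 0 of them passed 0.1 or 2-fold in either comparison, against 14.1% of all genes above 0.1, 9.86% below −0.1, 1.90% at least 2-fold higher and 3.97% lower. *Ctsa* came nearest, at 1145 and 2215 CPM in the homeostatic and DAM gates of VEH and 1175 and 2240 CPM in LEM, with log2 ratios of 0.95 and 0.93. Of 26 other cystatins and protease inhibitors, 24 had a row and 1 met the minimum, *Serpinb6a*, with a LEM to VEH ratio of 0.07.

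Of 22 genes of cathepsin processing and sorting, 19 met the minimum. Between the libraries 5 of the 19 were above 0.1, against 14.1% of all genes, and 0 below −0.1, against 9.86%, with a median of 0.02. Between the gates 0 passed 2-fold in either direction, against 1.90% of all genes higher and 3.97% lower. *Lgmn*, the legumain that cleaves cathepsin precursors, had a LEM to VEH ratio of 0.13, but its level was 3808 and 2588 CPM in the homeostatic and DAM gates of VEH and 4201 and 2889 CPM in LEM, log2 ratios of −0.56 and −0.54. It thus lay lower where *Ctsb* and *Ctsl* lay higher. *Grn*, the progranulin gene, had DAM to homeostatic ratios of 0.79 and 0.69, *Psap*, whose product travels with cathepsin D, 0.09 and 0.19, and *Gga2* 0.68 and 0.84, while *Sort1*, a sorting receptor, had −0.72 and −0.64. *Grn* and *Psap* each had a LEM to VEH ratio of 0.12.

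Of 24 regulators of lysosomal genes, 21 met the minimum, with a median of 0.00 between the libraries. *Mcoln1*, a lysosomal channel gene, was above 0.1, at 0.11, and 1 regulator was below −0.1, *Mtor*, at −0.15, against 9.86% of all genes. Between the gates 1 was at least 2-fold lower in DAM, *Maf*, at 317 and 120 CPM in VEH and 319 and 116 CPM in LEM, against 3.97% of all genes. *Zkscan3*, a repressor of lysosomal genes, had DAM to homeostatic ratios of −0.91 and −0.77. Of 11 genes of the MHC class II pathway, which *Ctss* serves, 6 met the minimum. Between the gates 1 was at least 2-fold higher in DAM, *Cd74*, against 1.90% of all genes. Between the libraries there were 2 above 0.1 (*Ifi30*, 0.25, and *H2-Oa*, 0.18) and 2 below −0.1 (*H2-DMa*, −0.46, and *H2-DMb1*, −0.23), against 14.1% and 9.86% of all genes. The invariant chain gene *Cd74*, whose counts entered the MHC class II gate, was at 41.7 and 987 CPM in the homeostatic and DAM gates of VEH and at 44.8 and 716 CPM in LEM, while *Ctss* differed little between the same gates.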

How the data were processed

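Single-cell 5′ libraries of pooled PSAPP microglia were aligned and counted by the authors with Cell Ranger 8.0.0 on mm10 and filtered on genes, counts and mitochondrial share. The deposited values are whole-number UMI counts per gene and cell without normalization. SoupX is named in the methods, and whether its correction is in the counts could not be told. Cell names carry the treatment, 0 columns were unmatched, and barcodes shared by the libraries could not be counted because cells are numbered.

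Counts were summed over cells and divided by their total (CPM). Intervals are exact Poisson for levels, exact conditional binomial for ratios and Clopper-Pearson for shares. Gates used raw counts of genes that are not members, in a fixed order: choroid plexus, other leukocytes (0 cells), border-associated macrophages, mitotic, interferon, MHC class II (at least 10 counts), DAM, intermediate, *Ccl3* and *Ccl4* (20 counts), *Apoe* (20 counts), homeostatic. *Clec7a* was planned as a DAM marker and was not analysed here. Cells were female with *Xist* and no Y-linked count and male in the reverse case, and other cells entered no subpool. Thinning drew 2000 counts per cell and left out 7.10% of VEH and 4.98% of LEM cells. Scrublet's automatic threshold marked 0% of VEH and 12.8% of LEM cells, so the 10% with the highest scores were left out in an alternative chosen after that was seen. The ratio and call steps were tested on simulated libraries with counting noise only, with changes larger than the members' all-cell ratios. Thinning was checked on a sample of the cells, and gates, sex calls and likeness were not tested in this way.

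The members and lists were chosen with earlier results of these data known. All members are named, listed genes only if among the 3 largest ratios of their list, and look-alikes as the 3 highest r. A result of the regulator list is not reported here. Alternatives were scaling, cell weighting, doublets, sex, thinning, state shares, DAM minimum and DAM markers. Python 3.11.15, numpy 2.4.6, scipy 1.17.1, scanpy 1.11.5 and matplotlib 3.10.9 were used.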

Additional observations from a re-analysis of the deposited data

Results flagged for a closer look

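Over all cells and in the microglial gates, there were 6 cases in which the female and male cells of the pools moved in opposite directions past 0.1, each with a counting interval away from 0. With 1 subpool per sex and treatment these differences were not tested. In the MHC class II gate, the LEM to VEH log2 ratio of *Cst7* was −0.93 in female and 0.46 in male cells (a difference of −1.39), that of *Ctsb* −0.22 and 0.41 (−0.63) and that of *Ctsd* −0.15 and 0.28 (−0.43). The VEH female cells of that gate numbered 41. In the gate of *Ccl3* and *Ccl4*, *Cst7* had 0.55 in female and −0.91 in male cells (1.46) and *Ctsl* 0.14 and −0.10 (0.25). In the intermediate gate, *Ctsd* had 0.14 and −0.13 (0.27). Outside these gates, the shallow cells that passed no gate gave 0.15 and −0.22 for *Ctsb*, 0.17 and −0.37 for *Ctsl* and 0.29 and −0.44 for *Cst3*, and the choroid droplets, with 7 VEH female cells, gave −2.42 and 1.25 for *Cst7*.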

How the results depend on the processing

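The 5 members at least 2-fold higher in DAM-gated cells numbered 5 under each of the 15 alternatives, and 0 were lower. With gates and levels from thinned cells the DAM gate held 24 VEH and 39 LEM cells. Over all cells, the number above 0.1 in LEM was 3 to 4 under 10 alternatives, and the number below −0.1 went from 1 to 0 in female cells only. Within the homeostatic gate the number below −0.1 went from 1 to 0 in female cells and to 2 in thinned cells. Within the DAM gate the number above 0.1 went from 3 to 1 in male cells and to 5 in thinned cells, and the number below −0.1 from 0 to 1 in female, in male and in thinned cells. The all-cell ratio of *Cst3* ranged from −0.25 to −0.04, that of *Cst7* from −0.43 to −0.15, that of *Ctsd* from 0.07 to 0.24 and that of *Ctsz* from 0.14 to 0.25.

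Of the 699 alternative values, 64, of 37 results, had the other sign from the reported value. For 8 ratios within gates whose reported value was past 0.1, this came to 10 values. In female cells of the MHC class II gate they were −0.22 (*Ctsb*), −0.15 (*Ctsd*), −0.045 (*Ctsz*), 0.046 (*Cst3*) and −0.17 (*Cstb*), and with thinned gates −0.0098 (*Ctsd*) and −0.54 (*Cstb*). In the DAM gate they were −0.084 (*Ctsz*, thinned) and −0.088 (*Cstb*, male cells), and in the intermediate gate 0.028 (*Cst3*, female cells). The cause was not tested. No paired analysis was possible because each treatment has 1 library, and for the same reason no replicate could be left out. At *Cst7* and *Cstb* levels, under 1 count in most cells, depth limits what shares of cells can show.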
